A study of Rattus norvegicus with 6 samples.

Results

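The genes described here are the expressed rat genes that spread over very long stretches of the genome. Genomic span was read from the exon coordinates in the count tables, as the largest exon end minus the smallest exon start of a gene on the Rnor6.0 assembly. Genes with a span of at least 350000 bases (350 kb) and a row in the table of expressed genes were kept, while genes on X, Y and the mitochondrial genome and the genes Ank3 and Lama2 were set aside. Nrg1 was to be set aside as well, but its annotated span in these files is below the limit. Of 32552 gene identifiers, 268 reached this span, 209 of these were among the 13061 expressed genes, and 199 remained as the long-span genes. They were compared between the 2 substrates and against shorter autosomal genes. The table of expressed genes held 12407 of these. The comparison used the 12501 that passed the low-count filter of the test, whether or not they were in that table. The rule used only annotation and the presence of a gene in the table of expressed genes, whose genes each have a sum of over 60 counts. It used no difference between the substrates, but the set was proposed with earlier results of these data known. The comparisons below therefore describe a set that was not chosen blind to the data.

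The libraries came from primary oligodendrocytes (OLs), which make the myelin sheaths of brain and spinal cord, grown from progenitors of wild-type Sprague-Dawley Crl:CD (SD) rats, at postnatal day 7 by the series' labels and day 6 or 7 by the methods. The cells were differentiated for 10 days on 50 kPa hydrogels, in 3 libraries on flat gels and 3 on arrays of axon-like micropillars that were 5 µm wide, 10 µm apart and 22 µm tall. Gel stiffness, genotype and poly(A) selection of the RNA were shared by both groups. The question for these genes was whether their RNA differed between the substrates in the way that the RNA of shorter genes did. The methods describe isolation of cells from the cortices of 2 pups of mixed sex and say that experiments were repeated with other batches of pups. They do not say how cultures or animals map to these libraries, so p-values here measure the spread between these libraries, which may be technical.

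A gene of this size is almost entirely intron. RNA polymerase II copies introns together with exons, and the introns are removed by splicing, so a transcript of a long gene takes longer to complete than that of a short one. In mammals such genes are known above all from the nervous system, where many encode cell adhesion molecules, ion channels, receptors and synaptic scaffolds. After poly(A) selection the reads counted in exons come largely from finished, polyadenylated transcripts.

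The files give Ensembl identifiers without symbols. Ank3 and Lama2, which reach the span limit, had been set aside by the rule and are not counted as long-span genes here. Of the 77 genes for which the study's source data allowed a symbol to be paired with an identifier, 0 are long-span genes, so the genes below carry identifiers or are described by chromosome and span, and nothing can be said of their functions.

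The spans ran from 351495 to 6361342 bases with a median of 457781, and 10 genes exceeded 1000 kb. The exons covered a median of 0.858% of the span. Exonic length had a median of 4438 bases, against 2392 for the shorter genes tested, and the number of separate exon blocks a median of 22 against 9. The longest single intron had a median length of 137185 bases, or 27.9% of the span at the median. In the gene with the longest span, on chromosome 15, a single intron of 6137679 bases made up most of it. Another annotated gene lay within the span of 105 of the 199, and 98 of the 199 were on the plus strand. The genes lay on all 20 autosomes, most often on chromosome 4 (22 genes), chromosome 1 (21) and chromosome 2 (18). In 10 of them some exonic bases were shared with another gene, up to 23.4%, and since the strand setting of the counting is not stated, reads from such overlaps cannot be assigned with certainty.

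CPM, the unit of every level below, scales counts to the library total, after the TMM method has corrected that total for composition. The totals were between 10645621 and 15624525 counts. The long-span genes took 0.757%, 0.768% and 0.824% of all counts in flat libraries 1, 2 and 3, and 0.711%, 0.719% and 0.720% in micropillar libraries 1, 2 and 3. Every flat library was thus above every micropillar library. The share of counts on mitochondrial genes was also higher on flat gels, at 4.90%, 5.42% and 6.78% against 3.81%, 3.93% and 4.18%, and flat library 3 had the lowest total and the highest share. Whether this share has a part in the differences below was not tested. The mean level of a long-span gene had a median of 12.9 CPM and a range of 0.767 to 428 CPM, against a median of 21.5 CPM over all genes tested, with 19 genes above 100 CPM and 4 below 1 CPM.

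The cell type was checked against marker genes. Mbp, a major myelin protein, stood at 31360, 19840 and 20380 CPM on flat gels and at 48500, 48710 and 43890 CPM on micropillars. The 7 OL lineage markers of 9 that could be paired with identifiers summed to 44610 to 76370 CPM on flat gels and 83960 to 90350 CPM on micropillars. The 4 astrocyte markers, with Gfap the most abundant, summed to 1114 to 1834 CPM and 2042 to 2591 CPM, and the 4 neuronal markers to 434 to 441 CPM and 517 to 553 CPM. None of these markers was at 0 in any library. Rbfox3 (neuronal nuclei) and Eomes (intermediate neuronal progenitors) stayed below 3 CPM in every library and did not rise with the neuronal sum. Rbfox3 had 2.17, 2.85 and 2.87 CPM on flat gels and 2.24, 1.95 and 1.80 CPM on micropillars. Eomes had 1.70, 1.86 and 1.62 CPM against 0.408, 0.361 and 0.466 CPM. The neuronal sum thus rested almost wholly on Tubb3 and Map2, and the study lists Tubb3 among cytoskeletal genes elevated in these OLs. The microglial and vascular lists could not be read because 0 of 3 markers were paired in each. In bulk RNA, fewer cells of a type and less RNA per cell cannot be told apart, and the part of these cell types in the values of the long-span genes was not tested.

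Long-span genes were lower on micropillars more often, and higher less often, than genes in general. Of the 197 that passed the filter on low counts, 45 (22.8%) were lower on micropillars and 16 (8.12%) were higher at a Benjamini-Hochberg adjusted p under 0.05 by edgeR's quasi-likelihood F-test, adjusted over all 13163 genes tested. The same test called 11.4% of all genes lower and 15.3% higher. The other 136 long-span genes were not past the threshold. With scaling by library totals, which shifted the log2 fold change of all genes to a median of -0.15, 57 long-span genes (28.9%) were lower and 10 (5.08%) higher, beside 18.6% and 10.7% of all genes. The median log2 fold change of micropillar over flat was -0.17 for the long-span genes, with quartiles of -0.69 and 0.15, against -0.02 for all genes, and 126 of 197 (64.0%) had a value below 0 against 51.5% of all genes. Without a filter on low counts the medians were -0.13 and -0.12, a difference of -0.005, while the difference from shorter genes of like abundance was -0.24.

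The difference was larger among strong changes. Differentially expressed genes (DEGs) also had to change more than 1 on the log2 scale in either direction. Among the long-span genes 25 (12.7%) were DEGs lower on micropillars, where 3.15% of all genes were, and 2 were DEGs higher on micropillars, where 3.61% of all genes were. Of the 25 lower DEGs, 3 reached the cutoff of the filter on low counts in all flat but not all micropillar libraries. The values of the 3 micropillar libraries lay below all 3 flat values in 67 of the 197 long-span genes, where 21.7% of all genes showed that order. In 23 (11.7%) they lay above, where 24.3% of all genes did. The 2 long-span genes that did not pass the filter had 5, 14 and 27 counts on flat gels and 3, 8 and 6 on micropillars (chromosome 1), and 8, 15 and 26 counts on flat gels and 6, 4 and 3 on micropillars (chromosome 10).

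The share of lower calls rose across classes of span. The autosomal genes tested were divided at 10, 30, 100 and 350 kb. The share called lower was 10.3% of 3749 genes under 10 kb, 9.86% of 3856 genes from 10 to 30 kb, 11.8% of 3450 genes from 30 to 100 kb, 13.8% of 1446 genes from 100 to 350 kb and 22.8% of the long-span genes. The share called higher fell over the same classes, from 18.1% through 17.9%, 13.1% and 10.2% to 8.12%. Lower DEGs made up 2.72%, 2.67%, 3.33% and 3.87% of the shorter classes, so that the step to 12.7% came at the longest class. The median log2 fold change was 0.06, 0.02, -0.06, -0.10 and -0.17 from the shortest to the longest class. Across all 12698 autosomal genes the rank correlation of span with the log2 fold change was weak (Spearman's rho -0.11), and that of exonic length with it was -0.006. Genes are not independent replicates, and all of them share the same 6 libraries.

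**Figure D1:**
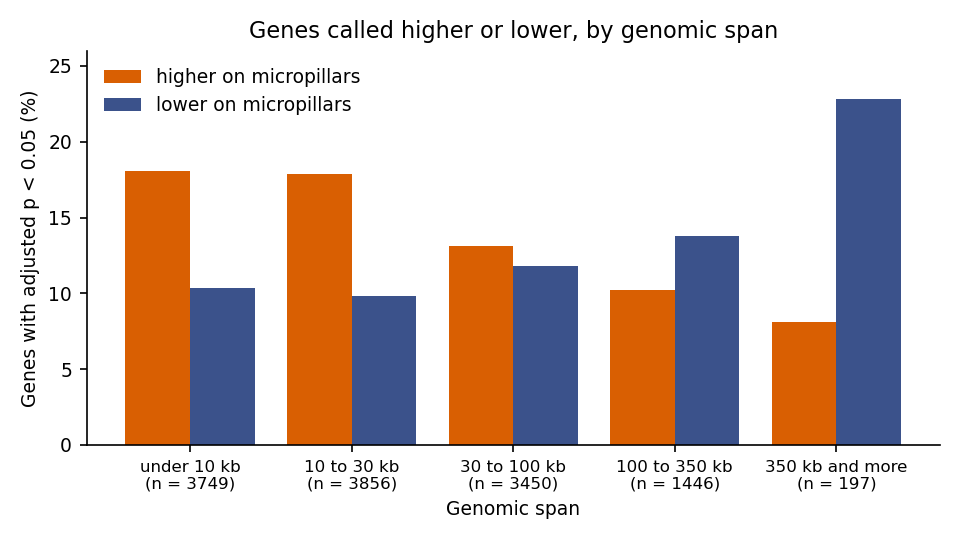
Bars give the percentage of autosomal genes in each class of genomic span (horizontal axis) with an adjusted p under 0.05, higher (orange) or lower (blue) on micropillars. Lower calls went from 10.3% in the shortest class to 22.8% in the long-span genes, and higher calls from 18.1% to 8.12%.

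Within the long-span genes the calls did not follow span. Of 53 genes from 350 to 400 kb, 16 were lower and 4 higher. Of 62 genes from 400 to 500 kb, 10 were lower and 7 higher. Of 47 genes from 500 to 700 kb, 10 were lower and 3 higher, and of 35 genes of 700 kb and more, 9 were lower and 2 higher. The rank correlation of span with the log2 fold change over the 197 genes was 0.03. These classes were not matched for abundance. The median level was 7.40 CPM from 350 to 400 kb, against 14.1, 13.65 and 15.2 CPM in the longer classes. At the threshold itself, the genes just inside had log2 fold changes of -1.17 (351495 bases, chromosome 16) and -0.45 (352292 bases, chromosome 18), and those just outside -0.03 (348112 bases, chromosome 17) and -0.08 (348933 bases, chromosome 20).

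Of the 5 longest genes, 1 passed the test. The gene of 6361342 bases had 77.2, 80.3 and 94.3 CPM on flat gels and 70.9, 74.8 and 73.4 CPM on micropillars. All 3 micropillar values were below the flat values, with a log2 fold change of -0.20 (edgeR, Benjamini-Hochberg adjusted p = 0.2). The next longest, 1934360 bases on chromosome 6, had 13.0, 11.01 and 14.0 CPM against 9.17, 8.73 and 9.53 CPM, a log2 fold change of -0.47 with an adjusted p of 0.059 from the same edgeR test. A gene of 1677737 bases on chromosome 1 had 39.2, 41.6 and 56.3 CPM on flat gels and 38.5, 37.1 and 36.7 CPM on micropillars, with flat library 3 well above the rest. The gene of 1397479 bases on chromosome 7 had 8.13, 11.3 and 18.6 CPM on flat gels and 4.96, 7.001 and 5.66 CPM on micropillars. It was a lower DEG (log2 fold change -1.10, SE 0.29, adjusted p = 0.02 in the edgeR test).

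Abundance mattered to the comparison, since long-span genes were less abundant than most genes and low levels carry more counting error. The long-span genes were therefore divided into 5 equal bins of mean level, with limits near 3.13, 8.499, 20.6 and 47.1 CPM, and each bin was set beside the shorter genes of the same level. Of the long-span genes 8 of 40, 14 of 39, 8 of 39, 9 of 39 and 6 of 40 were lower on micropillars from the least to the most abundant bin. The shorter genes of these bins were lower in 6.62%, 9.93%, 12.8%, 11.5% and 12.4%. Higher calls numbered 0, 1, 4, 3 and 8 among the long-span genes and made up 5.17%, 10.4%, 16.3%, 20.5% and 20.2% of the shorter ones. In the most abundant bin the 8 of 40 higher calls made up about the same share as in shorter genes. Weighted to the levels of the long-span genes, 10.6% of the shorter genes were lower, 14.5% higher and 3.47% lower DEGs, against 22.8%, 8.12% and 12.7% of the long-span genes.

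The size of the difference was concentrated in the less abundant genes. The median log2 fold change of the long-span genes was -0.70, -0.43, -0.00, -0.10 and -0.06 from the least to the most abundant bin, and that of the shorter genes -0.14, -0.05, -0.00, 0.01 and 0.02. Averaged over the bins, the long-span genes were lower than shorter genes of like abundance by a difference of medians of -0.23 on the log2 scale. Among the long-span genes tested, 8 reached the cutoff of the low-count filter in all flat but not all micropillar libraries, and 0 the reverse. Such genes can lower the medians of the least abundant bins, and the bins were not recomputed without them. With at least 10 counts in every library the averaged difference was -0.20. In the least abundant bin the medians descended with span through all 5 classes, at -0.03, -0.12, -0.26, -0.43 and -0.70. In the bin above it they were 0.07, -0.04, -0.12, -0.26 and -0.43. In the middle bin the long-span genes departed from this order, with a median of -0.00 against -0.16 for genes of 100 to 350 kb.

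Of the 79 long-span genes in the lower 2 bins, 22 (27.8%) were lower and 1 was higher, where 8.20% of the shorter genes were lower and 7.66% higher. Of these 22, 19 were lower DEGs. In the upper 3 bins 23 of 118 (19.5%) were lower and 15 (12.7%) higher, where 12.2% and 19.3% of the shorter genes were. Without flat library 3 the lower 2 bins held 13 lower long-span genes (16.5%, shorter genes 3.24%) and the upper 3 bins 18 (15.3%, shorter genes 7.39%). Without micropillar library 1 the numbers were 12 (15.2%, shorter genes 2.78%) and 11 (9.32%, shorter genes 3.18%), and without micropillar library 2 they were 13 (16.5%, shorter genes 2.65%) and 10 (8.47%, shorter genes 2.94%).

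**Figure D2:**
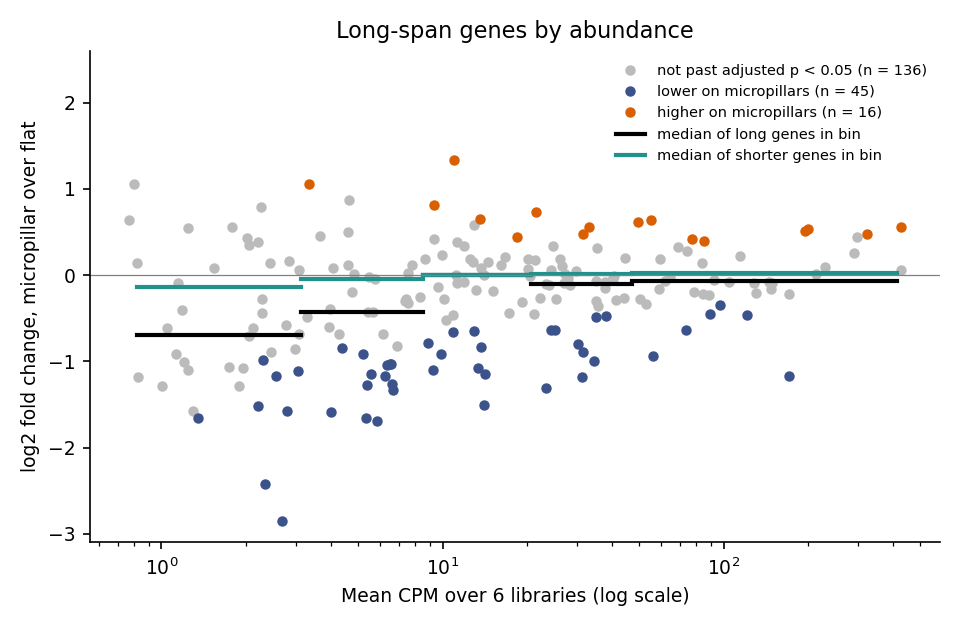
Each point is 1 of the 197 long-span genes, placed by its mean CPM over 6 libraries (log scale) and its log2 fold change of micropillar over flat, with colour for genes past an adjusted p of 0.05. Horizontal lines give the median of long-span genes (black) and of shorter genes (green) in each abundance bin, which stand at -0.70 and -0.14 in the least abundant bin and at -0.06 and 0.02 in the most abundant.

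A longer mature transcript collects more reads, so exonic length was examined in the same way. In the 3 equal groups of long-span genes by exonic length (612 to 3435, 3435 to 5154 and 5154 to 29464 bases), 21.2%, 24.6% and 22.7% were lower on micropillars. Shorter genes of these exonic lengths were lower in 9.77%, 10.7% and 13.9%. The median log2 fold changes were -0.14, -0.11 and -0.24 for long-span genes and 0.01, -0.01 and -0.07 for shorter genes. The share of lower calls among long-span genes was thus much the same in short and long mature transcripts.

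The libraries were then compared one by one. For each gene the mean log2 CPM over the 6 libraries was subtracted, and the median over the long-span genes was taken in each library. It was 0.04, 0.09 and 0.21 in flat libraries 1, 2 and 3, and -0.06, -0.05 and -0.12 in micropillar libraries 1, 2 and 3. All flat libraries were above all micropillar libraries, and flat library 3 stood furthest from the others. Relative to shorter genes of like abundance the values were 0.06, 0.07 and 0.26 on flat gels and -0.08, -0.08 and -0.16 on micropillars. In flat library 3 the classes of span were spread widest, with genes under 10 kb at -0.11 and long-span genes at 0.21. Among the 79 long-span genes of the lower 2 abundance bins the library medians were 0.07, 0.23 and 0.47 on flat gels and -0.17, -0.18 and -0.32 on micropillars.

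**Figure D3:**
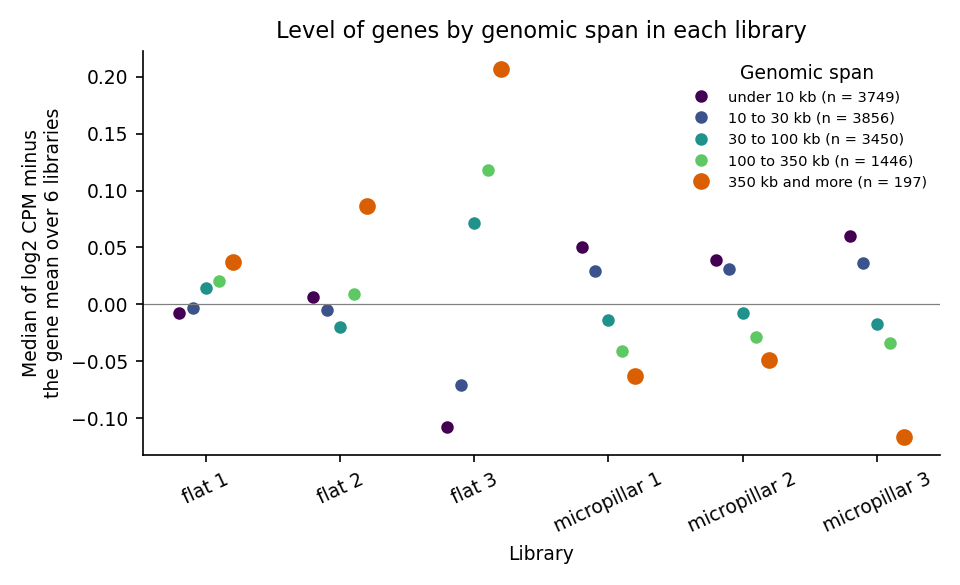
Points give the median, over the genes of a span class, of log2 CPM minus the gene's mean over 6 libraries (vertical axis) in each library (horizontal axis). The long-span genes lay at 0.04 to 0.21 in the flat libraries and at -0.12 to -0.05 in the micropillar libraries, and the classes were furthest apart in flat library 3.

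The flat libraries varied more among themselves than the micropillar libraries. The SD of log2 CPM over 3 libraries had a median of 0.29 on flat gels and 0.15 on micropillars for the long-span genes, and was larger on flat gels in 154 of 197 (78.2%), close to the 78.4% of all genes tested. Shorter genes of like abundance had weighted medians of 0.28 and 0.16, close to those of the long-span genes. Micropillar libraries 1 and 2 differed by 1.91 times the variation that counting alone gives per gene over all genes, and by 1.75 times over the long-span genes. The other pairs within a group differed by 7.26 to 42.0 times over all genes. A shared culture or RNA sample behind micropillar libraries 1 and 2 was not tested.

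The 45 long-span genes lower on micropillars had log2 fold changes between -2.85 and -0.35, with a median of -1.05. Their median level was 12.7 CPM on flat gels and 6.50 CPM on micropillars. Of the 45, 24 had a mean level under 10 CPM and 15 one above 20 CPM. In 44 the groups did not overlap, but the test that selected these genes favours such separation, so it is no further support. Of the 45, 3 reached the cutoff of the low-count filter in all flat but not in all micropillar libraries, so that they were tested only because of their flat values. Among the 182 long-span genes with at least 10 counts in every library, 42 (23.1%) were lower, beside 12.4% of all genes, and the lowest log2 fold change was -1.69. In 32 of the 45 the highest flat value was that of flat library 3, in 11 that of flat library 2 and in 2 that of flat library 1. They had a median of 22 exon blocks and a median span of 435642 bases, beside 22 exon blocks and 469134 bases in the genes past no threshold.

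The lower gene with the smallest p was ENSRNOG00000047605, on the minus strand at chr1:17446417-18058055 (Rnor6.0), which spans 611638 bases with 30 exon blocks. It had 28.7, 40.1 and 31.4 CPM on flat gels and 13.5, 11.8 and 15.2 CPM on micropillars. Every flat value was well above every micropillar value. Its log2 fold change was -1.31 (SE 0.16), a micropillar level 0.403 times that on flat gels (edgeR, Benjamini-Hochberg adjusted p = 0.0015).

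The second was ENSRNOG00000028832, on the plus strand at chr1:268189277-268620331, which spans 431054 bases with 26 exon blocks. Its levels were 15.4, 24.1 and 22.9 CPM on flat gels and 6.80, 7.72 and 7.46 CPM on micropillars. The flat libraries were again all higher, although flat library 1 was lower than the other two. The log2 fold change was -1.504 (SE 0.19), and the adjusted p in the same edgeR fit was 0.0016. Both genes passed the threshold under every alternative run on them, with adjusted p-values of at most 0.013.

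Further lower genes, picked by level or size of change after their values were seen, show the range. The gene with the lowest log2 fold change, of 392154 bases on chromosome 4, had 2.55, 6.17 and 5.38 CPM on flat gels and 0.408, 1.01 and 0.533 CPM on micropillars. Its log2 fold change of -2.85 (SE 0.46) had an adjusted p of 0.003 from edgeR with Benjamini-Hochberg adjustment. With 6, 14 and 8 counts on micropillars it is among the 3 genes that entered the test through the flat libraries, and the size of its change is uncertain. A gene of 404471 bases on chromosome 1 was at 4.26, 3.78 and 3.86 CPM on flat gels, in close agreement between those libraries, and at 1.15, 0.361 and 0.666 CPM on micropillars, and is another of these 3.

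The most abundant lower gene, of 351495 bases on chromosome 16, had 171, 237 and 299 CPM on flat gels and 106, 110 and 99.5 CPM on micropillars. The micropillar values were close together while the flat values were spread wide, and the log2 fold change was -1.17 (SE 0.18) with an adjusted p of 0.0025 (edgeR, Benjamini-Hochberg). A gene of 374949 bases on chromosome 5 had 34.8, 46.2 and 49.8 CPM against 18.8, 17.5 and 21.2 CPM, with an adjusted p of 0.0017 in the same edgeR fit. Both long-span genes of chromosome 20 were lower, a count too small to speak for that chromosome. The one of 727949 bases went from 67.0, 68.5 and 85.1 CPM on flat gels to 35.2, 37.0 and 42.9 CPM on micropillars, a log2 fold change of -0.94 (SE 0.13).

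The 25 lower DEGs had log2 fold changes from -2.85 to -1.03. Their median levels were 8.63 CPM on flat gels and 3.79 CPM on micropillars, and 19 of the 25 were under 10 CPM in the mean. Among the 25 are the 3 genes that entered the test through the flat libraries, and the value of -2.85 belongs to 1 of them. Lower genes were found on most chromosomes, with 7 of 20 tested on chromosome 1, 5 of 22 on chromosome 4 and 5 of 10 on chromosome 18. On chromosomes 9, 12 and 19 none of the 12, 6 and 4 long-span genes was lower. The shares of all genes called on each chromosome were not computed, so these small counts cannot show whether there is a pattern by chromosome.

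The 16 long-span genes higher on micropillars changed less. Their log2 fold changes were between 0.40 and 1.34 with a median of 0.55, and their median level was 33.0 CPM on flat gels and 49.8 CPM on micropillars. Of the 16, 11 had a mean level above 20 CPM and 2 one under 10 CPM. In all 16 the groups did not overlap, which selection by the same test favours. The highest flat value was that of flat library 1 in 12 of the 16. Relative to the gene means, the medians of flat libraries 1, 2 and 3 were -0.12, -0.35 and -0.39 in the higher genes. In the lower genes they were 0.18, 0.53 and 0.75. In both sets flat library 1 was thus nearest the micropillar libraries and flat library 3 furthest, while the sign follows from the selection.

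The higher gene with the smallest p was ENSRNOG00000032437, on the plus strand at chr19:60017746-60580651, which spans 562905 bases. It had 49.4, 40.6 and 39.6 CPM on flat gels and 70.2, 67.1 and 64.8 CPM on micropillars. All micropillar values were above the flat values. The log2 fold change was 0.64 (SE 0.12), which is a level 1.56 times that on flat gels (edgeR, Benjamini-Hochberg adjusted p = 0.005).

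The second, ENSRNOG00000011076 on the minus strand at chr2:231226949-231648122, spans 421173 bases with 54 exon blocks. Its levels were 178, 169 and 143 CPM on flat gels and 245, 246 and 217 CPM on micropillars. The groups were apart, with a log2 fold change of 0.53 (SE 0.12) and an adjusted p of 0.01 from the same edgeR test. This call was lost without micropillar library 1 (adjusted p = 0.056), without micropillar library 2 (0.062) and with these libraries summed (0.059).

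**Figure D4:**
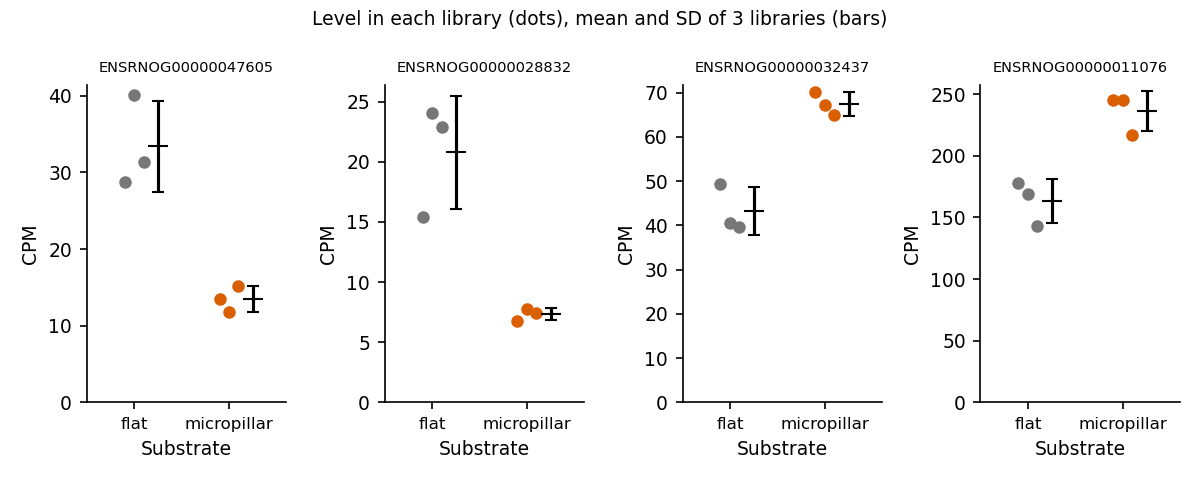
Each panel shows the level in CPM (vertical axis, from 0) of a long-span gene in 3 flat and 3 micropillar libraries, with dots for libraries and bars for the mean and SD. In the 2 lower genes on the left and the 2 higher genes on the right the groups of libraries did not overlap, which their selection by the smallest p favours.

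The 2 higher DEGs were among the less abundant of these genes and were chosen after their values were seen. A gene of 717419 bases on chromosome 1 had 2.48, 1.73 and 2.33 CPM on flat gels and 5.03, 4.91 and 3.597 CPM on micropillars. Its log2 fold change was 1.05 (SE 0.28), with an adjusted p of 0.021 from edgeR with Benjamini-Hochberg adjustment. A gene of 427638 bases on chromosome 10 had 9.91, 2.06 and 6.91 CPM against 16.9, 16.9 and 13.5 CPM, with widely spread flat values and a log2 fold change of 1.34 (SE 0.40, adjusted p = 0.035 from the same edgeR test).

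The most abundant long-span gene and the next were not lower on micropillars. The most abundant bin as a whole had a median log2 fold change of -0.06, against 0.02 for shorter genes. The most abundant, of 381935 bases on chromosome 5, had 565, 218 and 475 CPM on flat gels and 433, 440 and 437 CPM on micropillars. The flat values lay on both sides of the micropillar values, and the gene did not pass the threshold (log2 fold change 0.06, adjusted p of 0.9 in the edgeR test). The next, of 399291 bases on chromosome 4, had 429, 351 and 256 CPM on flat gels and 501, 476 and 543 CPM on micropillars. It was higher by a log2 fold change of 0.55 (SE 0.17) with an adjusted p of 0.039 from edgeR with Benjamini-Hochberg adjustment, and it also had the highest level per exonic length, at 123.5 CPM per kb.

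Genes close to the long-span genes were also read. The 30 tested genes lying within a long-span gene comprised 2 higher and 3 lower genes, with a median log2 fold change of -0.04. The nearest tested genes on either side numbered 370 and had a median span of 35478 bases. Of these, 48 (13.0%) were lower and 36 (9.73%) higher, with a median log2 fold change of -0.15. Over all genes tested 11.4% were lower and 15.3% higher, with a median of -0.02, while the long-span genes had a median of -0.17. The median of these neighbours was thus closer to that of the long-span genes than to that of all genes. The reason was not tested. Around the 45 lower long-span genes, 12 of 87 such neighbours (13.8%) were lower, beside 11.4% of all genes tested.

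The calls depended on which libraries were used. Of the 45 lower genes, 45 were called lower again without flat library 1, 36 without flat library 2 and 29 without flat library 3. Without micropillar library 1, 2 or 3 the numbers were 23, 23 and 30, and 21 were called in all 6 of these fits. The 21 had log2 fold changes of -2.85 to -0.84 and levels of 2.35 to 170.5 CPM, and 17 of them were lower DEGs. The value of -2.85 and the level of 2.35 CPM belong to genes that entered the test only because of their flat values. All 45 kept their sign in all 6 fits. In 44 of the 45 the groups did not overlap, so leaving out 1 library could hardly change the sign, and this is no further support. Of the 16 higher genes, 1 was called in all 6 fits, with 16, 14 and 7 called again without flat libraries 1, 2 and 3 and 2, 1 and 9 without micropillar libraries 1, 2 and 3.

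The background moved with the calls. Without flat library 3, 15.7% of the long-span genes and 6.25% of all genes were lower, and 4.06% and 10.5% were higher. Without micropillar library 1 the lower shares were 11.6% and 3.28%, and without micropillar library 2 they were 11.6% and 3.09%. In each of the 6 fits the share of lower calls was larger among long-span genes than among all genes, and the share of higher calls smaller. With micropillar libraries 1 and 2 summed, 22 long-span genes (11.1%) were lower and 2 (1.01%) higher, beside 3.45% and 7.39% of all genes.

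**Figure D5:**
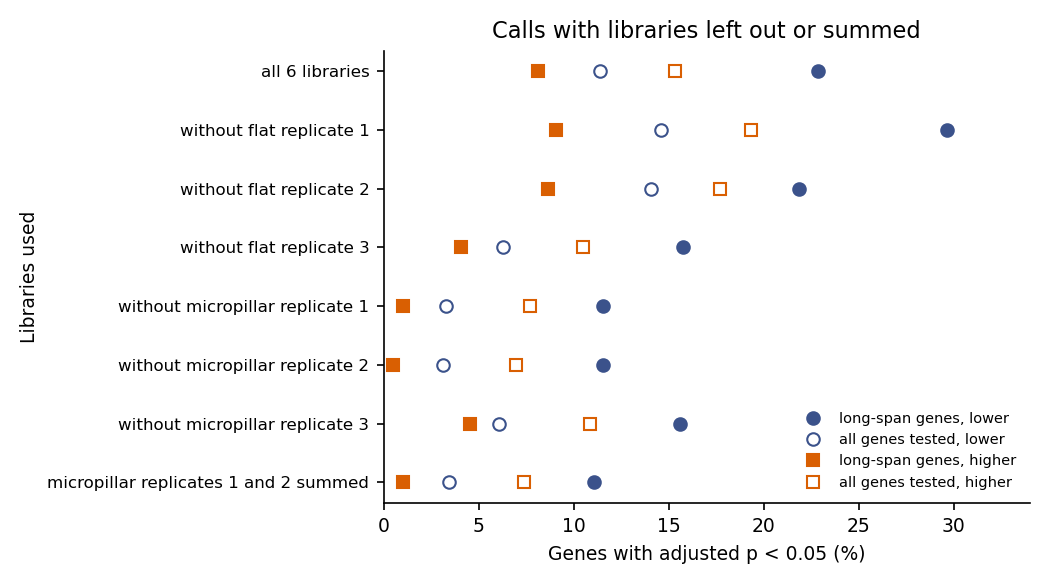
Filled symbols give the percentage of long-span genes, and open symbols that of all genes tested, called lower (circles, blue) or higher (squares, orange) at an adjusted p under 0.05 (horizontal axis) with the libraries named on the vertical axis. Lower calls of long-span genes ranged from 11.1% to 29.6% and lay above those of all genes in each row.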

How the data were processed

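RNA from 3 flat and 3 micropillar libraries was measured. Reads were trimmed (Trimmomatic) and aligned to Rnor6.0 (STAR 2.5.2b) by the authors, who deposited raw counts of uniquely mapped exonic reads per Ensembl gene from featureCounts (Subread 1.5.2), without normalization. The authors also deposited rlog values, on a log2 scale and shrunken by DESeq2, which served here only to select genes. Strand setting, pooling of cultures and annotation release are not given in the sources used here.

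Spans, exon blocks (overlapping exons merged) and exonic lengths were computed from the exon coordinates in the count files, so a gene model that is too short in the annotation is missed. The 2 groups were compared by the quasi-likelihood F-test of edgeR 4.0.16 (R 4.3.3) after its low-count filter (filterByExpr) and TMM scaling, without a replicate term, and p-values were adjusted by Benjamini-Hochberg over 13163 genes. The common dispersion was 0.0236. SE is the log2 fold change divided by the square root of F. CPM uses TMM-scaled totals, and log2 CPM a prior count of 2. Counting error is large for the genes near 1 CPM, which had on the order of 10 counts per library. The script was tested on simulated data with known changes. Shorter genes of like abundance are those in the 5 bins set by the quintiles of mean log2 CPM of the long-span genes, weighted to their numbers.

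The set of genes and the lists were chosen with earlier results of these data known. Identifiers were to be named only where a source pairs them with a symbol, and otherwise at most 2 higher and 2 lower with the smallest p. The RefSeq table at hand holds no Ensembl identifiers, so lists of channels, adhesion molecules and other families could not be read and no promoter or protein sequence could be matched. Marker symbols came from the study's source data, through values that the counts reproduce. Alternatives were DESeq2 1.42.0, other scalings and filters, offsets for exonic length, the replicate block, other span limits, and libraries left out or summed.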

Additional observations from a re-analysis of the deposited data

How the results depend on the processing

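The 45 lower and 16 higher calls, and the 25 lower and 2 higher DEGs, moved with the libraries used and with the span limit. Leaving out each library in turn gave 23 to 59 lower and 1 to 18 higher calls, with 15 to 39 lower and 0 to 2 higher DEGs. Over the same fits 3.09% to 14.6% of all genes were lower and 6.97% to 19.3% higher. The shares of DEGs over all genes were not computed for these fits. The number of lower DEGs was 39 without flat replicate 1 and 15 without flat replicate 3. With micropillar replicates 1 and 2 summed there were 22 lower and 2 higher calls and 0 higher DEGs. Scaling by library totals gave 10 higher calls, 1 higher DEG and a median log2 fold change of -0.29, beside -0.15 for all genes. Offsets for exonic length left 1 higher DEG, also together with the block. A span limit of 250000 bases gave 79 lower and 26 higher calls among 402 genes tested. One of 500000 bases gave 19 lower and 5 higher calls among 82 genes, with 11 lower and 1 higher DEGs. The same fit called 11.4% of all genes lower and 15.3% higher, with 3.15% lower and 3.61% higher DEGs. At 500000 bases the difference of medians from shorter genes of like abundance was -0.31. That difference was -0.30 to -0.18 when libraries were left out. The median log2 fold change of the long-span genes stayed below 0 in all 18 alternatives, between -0.29 and -0.10. Without a filter on low counts all 199 genes were tested, with 47 lower (23.6%; all genes 7.79%) and 20 higher calls (10.1%; all genes 11.4%), and the median of all genes moved to -0.12 beside -0.13 for the long-span genes, a difference of -0.005. The difference from shorter genes of like abundance was then -0.24.

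No pairing of libraries by the replicate numbers in the labels could be read. Deviations of same-numbered libraries correlated at 0.0796, -0.0825 and 0.00711, within a range of -0.103 to 0.0914 over all pairs of a flat and a micropillar library. Correlations this weak neither show nor exclude a pairing. The fit with the replicate number as a block gave 42 lower (21.3%; all genes 9.95%) and 17 higher calls (8.63%; all genes 15.2%). Calls in the lower 2 and upper 3 abundance bins under other fits were added after seeing the data. At about 10 counts per library, modest differences were not detectable at this depth. Groups of 3 libraries are too small for a check on single outlying values.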
